A study of Mus musculus with 58 samples.

Results

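Inflammatory cytokines and the genes of the NF-kB feedback loop were followed as 10 named genes of the 25307 in the deposited table, across all 58 libraries of mouse liver macrophages and monocytes. They were chosen by name. The cytokines are Il1b, Tnf and Il18, with Nlrp3 as the inflammasome sensor. The counter-regulators outside the cell are Il1rn, Il10 and Tgfb1. The feedback genes inside the cell are Nfkbia, Nfkbiz and Tnfaip3. A gene was tested where at least 3 libraries of a fit held at least 10 normalized counts. By that filter 9 of the 10 genes were tested between cell types and in monocytes, and 8 within each macrophage type, where Tgfb1 was too low. Il10 was tested nowhere.

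NF-kB is a family of transcription factors held in the cytoplasm by inhibitor proteins and released when pattern-recognition receptors or the receptors of tumour necrosis factor and interleukin 1 are engaged. It drives the cytokine genes and, at the same time, the genes that shut it off again, among them the inhibitor IκBα and the ubiquitin-editing enzyme A20. Interleukin 1β and interleukin 18 are made as inactive precursors that an inflammasome must mature, so that messenger RNA is only the first step of their release. In liver these circuits are known from macrophages that meet bile acids, dying hepatocytes and bacterial products arriving from the gut.

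The cells came from livers of 129SV mice, all of that strain, in 5 groups. CBDL+DSS was advanced cholestatic injury from common bile duct ligation with acute colitis as a second hit. CBDL6w was ligation for 6 weeks, labelled advanced injury, and CBDL2w was ligation for 2 weeks, labelled onset. DSS was acute colitis without ligation, and Sham6w was the control group at 6 weeks. No time is labelled for DSS or CBDL+DSS, and no sham group at 2 weeks was used. There were 20 libraries of Kupffer cells, the resident macrophages of the liver sinusoids, 19 of monocyte-derived macrophages (MoMF) and 19 of monocytes. Each cell type had 4 libraries per injury group, except 3 of MoMF and 3 of monocytes in Sham6w. In 9 libraries 2 or 3 replicate numbers were joined, which the series describes as pooling. No label says that replicates were separate animals, so p-values measure the spread between these samples, which may be technical.

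The libraries were 3' tag libraries with molecular identifiers, and the deposited values are counts divided by a size factor per library. Totals ran from 228741 to 521954 recovered reads in Kupffer cells, 118687 to 461071 in MoMF and 235531 to 377725 in monocytes. A gene with no read in a library could have had up to 1.79 to 7.43 normalized counts there (3 reads, counting error only). The 10 Kupffer cell markers took 0.321 to 1.01% of reads in Kupffer cells, 0.0269 to 0.339% in MoMF and 0.00795 to 0.126% in monocytes. The 10 monocyte markers took 0.0217 to 0.190%, 0.0996 to 0.529% and 0.578 to 1.17% in the same order. The labels and these 2 lists thus ranked the cell types alike. The 10 markers common to macrophages took 0.613 to 1.00%, 0.304 to 0.869% and 0.381 to 0.743% in that order, with MoMF and monocytes overlapping. Their median was lower in MoMF than in monocytes in CBDL6w (0.392 against 0.617%), DSS (0.361 against 0.502%) and Sham6w (0.456 against 0.466%). It was higher in CBDL+DSS (0.82 against 0.674%) and CBDL2w (0.575 against 0.573%). Some libraries stood apart by markers of other cells. Endothelial markers (12 genes) took 0.144 to 0.167% of reads in DSS MoMF, against 0.00754 to 0.0565% in the other MoMF libraries. They took 0.157 to 0.396% in DSS and Sham6w monocytes, against 0.0110 to 0.0320% in the other monocyte libraries. Lymphocyte markers (11 genes) took 0.0548 to 0.185% in Sham6w MoMF, and Kupffer cell markers 0.325 and 0.339% in 2 of its 3 libraries.

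Promoter sequence is shown for Nfkbia and Tnfaip3, the feedback genes with a match to the NF-kB consensus close to the start, and for Tnf and Il1b, whose windows held a TATA box and no such match. Each line is the 250 bases before the start of transcription in RefSeq on GRCm38.p6, 5′ to 3′ on the strand of the gene, which is the reverse strand for all 4. Capitals mark matches to the NF-kB (kB) consensus on either strand and to TATAAA. The windows are chr12:55492648-55492897 for Nfkbia, chr10:19015411-19015660 for Tnfaip3, chr17:35202008-35202257 for Tnf and chr2:129371140-129371389 for Il1b.
Nfkbia: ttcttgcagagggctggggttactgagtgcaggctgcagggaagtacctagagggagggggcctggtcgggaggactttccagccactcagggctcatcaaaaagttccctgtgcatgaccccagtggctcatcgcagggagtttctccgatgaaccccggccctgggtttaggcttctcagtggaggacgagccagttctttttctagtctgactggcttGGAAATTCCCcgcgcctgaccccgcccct
Tnfaip3: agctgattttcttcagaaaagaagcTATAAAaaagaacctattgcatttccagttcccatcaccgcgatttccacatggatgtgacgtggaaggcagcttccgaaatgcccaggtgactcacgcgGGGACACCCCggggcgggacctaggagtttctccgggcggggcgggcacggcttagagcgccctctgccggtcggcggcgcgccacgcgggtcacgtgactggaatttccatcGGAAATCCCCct
Tnf: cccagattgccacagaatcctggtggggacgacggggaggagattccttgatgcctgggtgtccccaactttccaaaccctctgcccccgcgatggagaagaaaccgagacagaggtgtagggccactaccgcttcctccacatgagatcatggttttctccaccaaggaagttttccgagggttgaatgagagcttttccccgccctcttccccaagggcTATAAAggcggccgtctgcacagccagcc
Il1b: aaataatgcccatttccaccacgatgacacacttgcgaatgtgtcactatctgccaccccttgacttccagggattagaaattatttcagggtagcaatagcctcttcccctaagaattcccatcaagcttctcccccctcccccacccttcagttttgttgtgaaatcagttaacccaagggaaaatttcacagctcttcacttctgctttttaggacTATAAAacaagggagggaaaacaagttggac
The kB match of Nfkbia began 29 bases before its start, and those of Tnfaip3 began 125 and 12 bases before the first of its 2 RefSeq starts, with TATAAA 225 bases before it. TATAAA began 29 bases before the Tnf start and 31 bases before the Il1b start. Of the 8 members with a RefSeq entry, 4 held a kB match in at least 1 window (Nfkbia, Tnfaip3, Nlrp3 and Tgfb1) and 4 held TATAAA (Il1b, Tnf, Tnfaip3 and Il18). In the windows printed, the Tnfaip3 site 125 bases before the start matched on both strands, and no other matches overlapped. Of 32851 promoter windows of this length, 7.25% held a kB match and 12.4% held TATAAA on either strand. A match is a description of letters, and an absent match says nothing about the factor.

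Il1b (ENSMUSG00000027398, chromosome 2, 129364570 to 129371139 on GRCm38, reverse strand) encodes interleukin 1β and was read in all 58 libraries. It averaged 106 ± 43.1 normalized counts in Kupffer cells (SD, n = 20), 307 ± 140 in MoMF (n = 19) and 449 ± 142 in monocytes (n = 19). Of the 20 Kupffer cell libraries, 19 lay below every monocyte library and 10 below every library of MoMF. In bulk samples, fewer cells that make a transcript and less of it per cell cannot be told apart. Tnf (ENSMUSG00000024401, chromosome 17, 35199381 to 35202007, reverse strand), for tumour necrosis factor, was low throughout, with 993 reads in all. It averaged 5.63 ± 6.10 normalized counts in Kupffer cells, 19.5 ± 19.9 in MoMF and 27.3 ± 16.2 in monocytes.

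Il18 (ENSMUSG00000039217, chromosome 9, 50554827 to 50581840, forward strand) followed another order than Il1b. It averaged 23.4 ± 9.91 normalized counts in Kupffer cells, 11.0 ± 7.10 in MoMF and 18.8 ± 10.5 in monocytes, and no Kupffer cell library lay below every monocyte library. Nlrp3 (ENSMUSG00000032691, chromosome 11, 59541568 to 59566956, forward strand) averaged 16.6 ± 8.06 normalized counts in Kupffer cells, 17.7 ± 7.73 in MoMF and 38.6 ± 16.2 in monocytes. Il18 overlaps 2 other annotated genes that held 12 and 10 reads in all, and Il1b has an antisense partner with 12 reads. Whether the authors counted by strand is not given in the sources used here.

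Among the counter-regulators, Il1rn (ENSMUSG00000026981, chromosome 2, 24336853 to 24351494, forward strand) encodes the interleukin 1 receptor antagonist, which occupies the receptor without signalling. It averaged 24.2 ± 9.03 normalized counts in Kupffer cells, 27.3 ± 15.1 in MoMF and 70.4 ± 26.5 in monocytes. Tgfb1 (ENSMUSG00000002603, chromosome 7, 25687002 to 25705077, forward strand), for transforming growth factor β1, averaged 3.53 ± 2.31, 4.88 ± 3.12 and 9.87 ± 6.90 normalized counts in the same order. Il10 (ENSMUSG00000016529, chromosome 1, 131019845 to 131024974, forward strand), for the anti-inflammatory interleukin 10, had 44 reads in all, in 26 of 58 libraries. Those were 15 reads in Kupffer cells, 18 in MoMF and 11 in monocytes, so that no comparison of Il10 could be made at this depth. Its highest group mean was 3.36 ± 3.76 normalized counts in DSS MoMF, where the 4 libraries held 2.65, 8.87, 0.946 and 0.970, and all 4 CBDL+DSS libraries of that cell type were at 0.

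The feedback genes act inside the cell. Nfkbia (ENSMUSG00000021025, chromosome 12, 55489410 to 55492647, reverse strand) encodes IκBα, which NF-kB induces and which then carries it out of the nucleus. It averaged 323 ± 97.6 normalized counts in Kupffer cells, 564 ± 189 in MoMF and 792 ± 224 in monocytes. Nfkbiz (ENSMUSG00000035356, chromosome 16, 55811375 to 55838899, reverse strand) encodes IκBζ, a nuclear member of the inhibitor family that helps switch on a secondary set of NF-kB targets. It averaged 48.0 ± 27.8 normalized counts in Kupffer cells, 175 ± 99.3 in MoMF and 256 ± 87.8 in monocytes. All 20 Kupffer cell libraries, at 10.7 to 119, lay below all 19 monocyte libraries, at 123 to 428. Tnfaip3 (ENSMUSG00000019850, chromosome 10, 19000910 to 19015657, reverse strand) encodes A20, which edits ubiquitin chains on signalling proteins upstream of NF-kB. It averaged 18.5 ± 19.8 normalized counts in Kupffer cells, 46.0 ± 19.4 in MoMF and 79.3 ± 31.7 in monocytes.

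**Figure D1:**
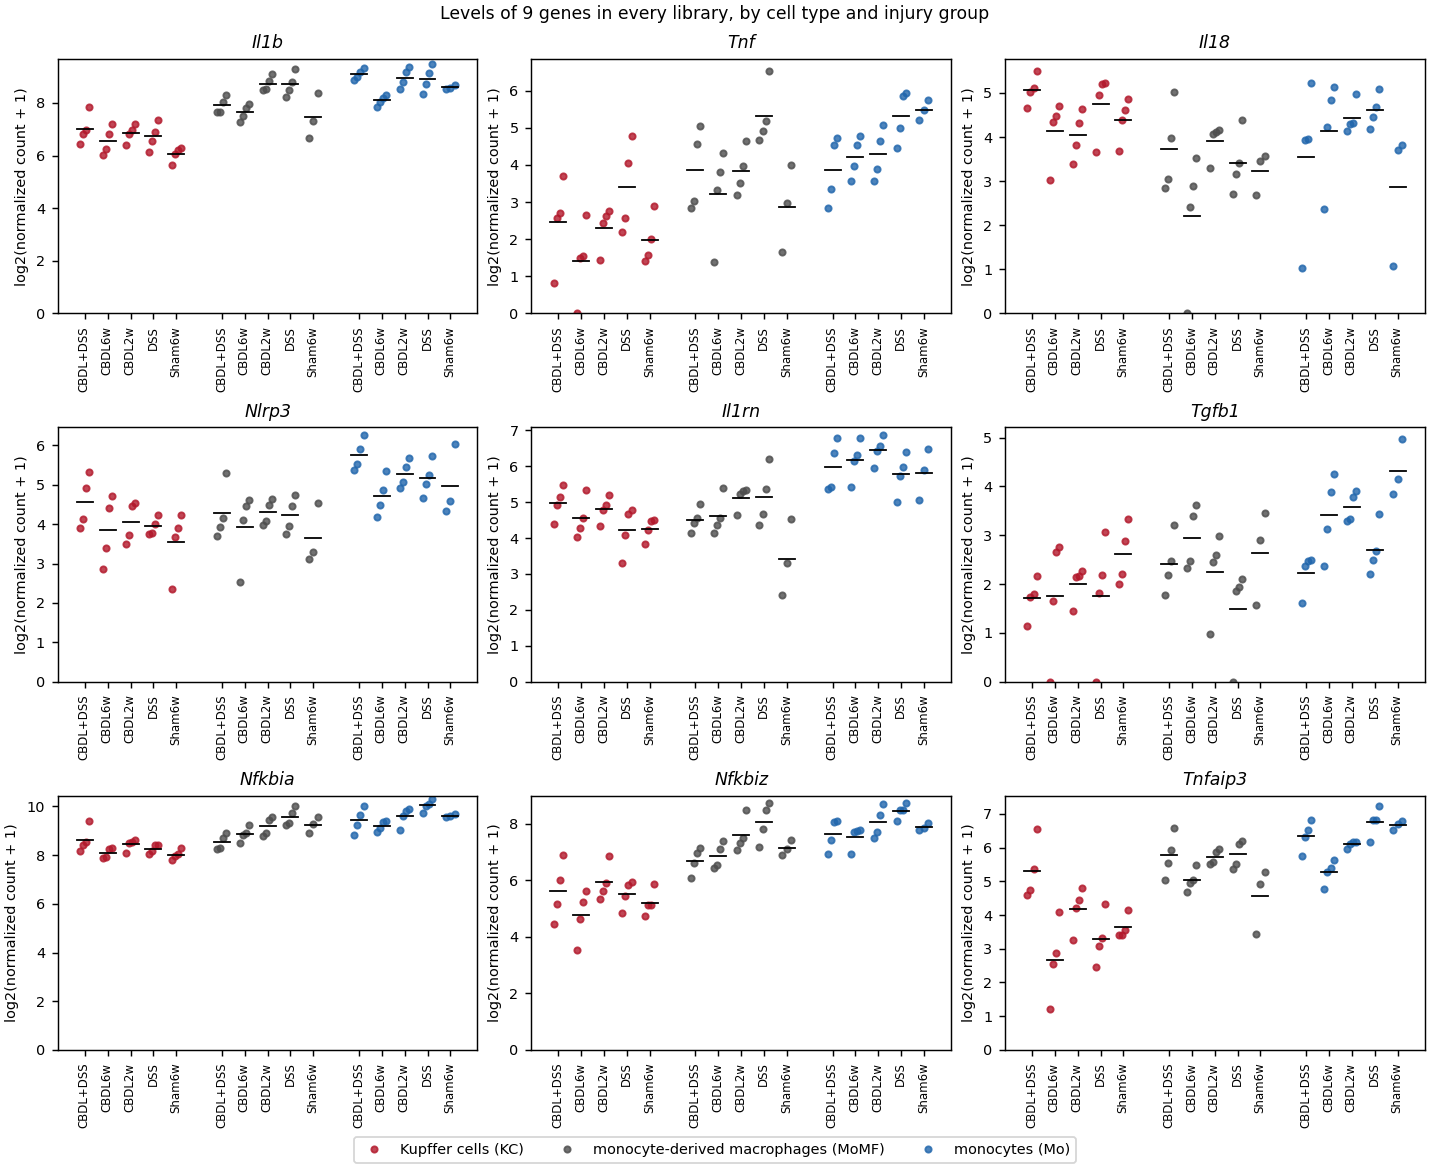
Level of 9 of the 10 genes in each library, as log2(normalized count + 1) on the vertical axis, by cell type and injury group on the horizontal axis; points are libraries and lines are group means, and Il10, with 44 reads in all, is not drawn. For Nfkbiz all 20 Kupffer cell libraries lie below every monocyte library, and for Il1b and Nfkbia 19 of the 20 do.

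Ordered over the 15 groups of libraries, Il1b was highest in CBDL+DSS monocytes at 550 ± 76.0 normalized counts and lowest in Sham6w Kupffer cells at 66.0 ± 12.6. Nfkbia, Nfkbiz and Tnfaip3 were all highest in DSS monocytes, at 1066 ± 177, 357 ± 62.7 and 111 ± 32.2 normalized counts. Nfkbia was lowest in Sham6w Kupffer cells at 261 ± 37.9, while Nfkbiz and Tnfaip3 were lowest in CBDL6w Kupffer cells at 30.1 ± 16.5 and 7.10 ± 6.29. The order was gradual: neighbouring groups overlapped in 13 of 14 steps for Il1b and in 14 of 14 for each of the other tested genes.

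Kupffer cells were compared with monocytes within each injury group, a comparison the series names. Lower Il1b, Nfkbia and Nfkbiz transcripts in Kupffer cells were found in all 5 groups, with log2 differences of -1.53 to -2.55 for Il1b, -0.79 to -1.78 for Nfkbia and -2.01 to -2.95 for Nfkbiz. Nfkbia overlapped in CBDL+DSS, at 286 to 677 normalized counts in Kupffer cells against 451 to 1034 in monocytes. That call was lost without CBDL+DSS Kupffer cell library 2 or monocyte library 1 (adjusted p = 0.0754 and 0.0834, limma). In Sham6w the 4 Kupffer cell libraries held 66.0, 48.5, 77.4 and 72.2 normalized counts of Il1b, against 367, 381 and 408 in the 3 monocyte libraries, a log2 difference of -2.55 ± 0.31 (SE, adjusted p = 7.6e-09, limma). Nfkbiz held 34.1, 26.1, 33.7 and 57.3 normalized counts in those Kupffer cell libraries, against 231, 260 and 220 in monocytes, and differed by -2.67 ± 0.42 (adjusted p = 2.79e-06). For both genes the lowest monocyte library was far above the highest Kupffer cell library. Folds here and below are on the log2(normalized count + 1) scale, which understates changes of low genes.

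Tnfaip3 was lower in Kupffer cells than in monocytes in 4 of the 5 groups. In DSS it held 4.47, 7.51, 19.2 and 8.93 normalized counts in Kupffer cells, against 111, 150, 71.2 and 111 in monocytes (log2 difference -3.46 ± 0.41, adjusted p = 6.2e-09). In CBDL+DSS it held 40.4, 23.3, 25.6 and 92.5 normalized counts in Kupffer cells, against 78.8, 53.2, 91.1 and 111 in monocytes, which overlap (log2 difference -1.04, not past the threshold). Tnf was lower in Kupffer cells in the same 4 groups, with 6.39, 3.03, 1.99 and 1.66 normalized counts in Sham6w Kupffer cells, against 52.5, 36.2 and 43.6 in Sham6w monocytes (log2 difference -3.51 ± 0.67, adjusted p = 6.71e-05). Il1rn was also lower in those 4 groups, with log2 differences of -1.56 to -1.64. Nlrp3 was lower in CBDL2w, DSS and Sham6w, and Tgfb1 in CBDL6w and Sham6w. These calls rested on single libraries: Nlrp3 lost its call in 5 of 8 fits that left out 1 library in CBDL2w, 7 of 8 in DSS and 2 of 7 in Sham6w, and Tgfb1 in 4 of 8 in CBDL6w and 6 of 7 in Sham6w. All but the Nlrp3 call in Sham6w were also lost without the filter on low values (adjusted p = 0.0812 to 0.123, limma). The Tnf calls were lost in 3 of 8 such fits in CBDL2w and 4 of 8 in DSS. Il18 passed in no group.

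Counted over the 9 members tested, 3 were lower in Kupffer cells than in monocytes in CBDL+DSS, 7 in CBDL6w, 7 in CBDL2w, 7 in DSS and 8 in Sham6w, and none was higher. Over all 7555 genes tested, 14.4%, 15.3%, 14.4%, 14.7% and 16.0% passed in either direction, in the same order. The members' median log2 difference ran from -1.04 in CBDL+DSS to -1.78 in DSS, while the median of all genes stayed between -0.01 and 0.10. The share of reads from 20 immediate early and heat shock genes, which rise during tissue dissociation, also differed between these cells. It was 0.661 to 0.946% in Sham6w Kupffer cells, against 1.33 to 1.59% in Sham6w monocytes, and 10 of its 20 genes were lower in Kupffer cells. Endothelial markers took 0.0309 to 0.0618% in Sham6w Kupffer cells against 0.220 to 0.396% in Sham6w monocytes, and 0.0287 to 0.0553% in DSS Kupffer cells against 0.157 to 0.321% in DSS monocytes. Neutrophil markers (10 genes) took 0.00281 to 0.00805% in Sham6w Kupffer cells against 0.0261 to 0.218% in Sham6w monocytes. The part of these shares in the differences was not tested.

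Against MoMF, Kupffer cells were lower for Il1b, Nfkbia and Nfkbiz in 4 groups and for Tnfaip3 in 3 of those. In DSS, Il1b held 68.8, 119, 164 and 92.3 normalized counts in Kupffer cells, against 299, 625, 446 and 362 in MoMF (log2 difference -1.97 ± 0.29, adjusted p = 1.03e-06). Nfkbiz held 42.9, 56.3, 27.5 and 60.5 normalized counts in those Kupffer cells, against 225, 425, 357 and 145 (log2 difference -2.54 ± 0.39, adjusted p = 3.33e-06). The ranges were apart for both. Tnf was called lower in DSS, with 12.6 ± 10.6 normalized counts in Kupffer cells against 44.8 ± 31.1 in MoMF (log2 difference -1.92 ± 0.62, adjusted p = 0.0275), with overlapping libraries, and the call was lost in 3 of 8 fits that left out 1 library. The single member called higher in Kupffer cells was Il18, in CBDL6w, at 21.1, 7.17, 25.0 and 19.2 normalized counts in Kupffer cells, against 4.29, 10.6, 6.39 and 0 in MoMF (log2 difference 1.93 ± 0.63, adjusted p = 0.0394). Those ranges overlap, and the call was lost in 5 of 8 fits that left out 1 of these libraries (CBDL6w Kupffer cells 1, 3 or 4, MoMF 1 or 4; adjusted p = 0.0626 to 0.28). The Nfkbia call was lost in 4 of 8 such fits in CBDL2w (adjusted p = 0.0593 to 0.167), where it was also lost without the filter (0.0729), and in 3 of 8 in CBDL6w. The Il1b call in Sham6w was lost without MoMF library 1+2+5 (0.0571). Endothelial markers took 0.0287 to 0.0553% of reads in DSS Kupffer cells against 0.144 to 0.167% in DSS MoMF. Lymphocyte markers took 0.000351 to 0.00249% in Sham6w Kupffer cells against 0.0548 to 0.185% in Sham6w MoMF. The part of these shares was not tested.

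Of 9 members, 4 were lower in Kupffer cells than in MoMF in CBDL6w and 1 was higher, 4 were lower in CBDL2w, 5 in DSS and 3 in Sham6w. Over all genes 9.66%, 6.63%, 13.5% and 15.9% passed. In CBDL+DSS limma called 0 of 9, beside 4.88% of all genes, and edgeR and DESeq2 called 0 each. Unadjusted p was under 0.05 for 4 members there, beside 1162 of 7555 genes. Without Kupffer cell library 6 of CBDL+DSS, Il1b and Nfkbiz were called lower there as well, with log2 differences of -1.17 and -1.49 (adjusted p = 0.0101 and 0.0169, limma). In Sham6w the median of all genes stood at 0.14, against which the members' median of -0.91 is to be read.

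MoMF and monocytes lay closer together. In CBDL+DSS 4 of 9 members were lower in MoMF than in monocytes (Il1b, Nlrp3, Il1rn and Nfkbia), in Sham6w 4 (Il1b, Tnf, Il1rn and Tnfaip3) and in CBDL6w 1 (Il1rn), beside 4.29%, 6.15% and 2.16% of all genes. Il1rn in Sham6w held 22.3, 4.34 and 8.84 normalized counts in MoMF, against 59.0, 88.1 and 32.4 in monocytes (log2 difference -2.40 ± 0.46, adjusted p = 0.000442, limma). The 3 libraries of each type did not overlap. Other calls rested on single libraries. Il1b in Sham6w was lost in 5 of 6 fits that left out 1 library (adjusted p = 0.0655 to 0.198), by edgeR (0.0946) and by DESeq2 (0.0714). Il1rn in CBDL6w and Nlrp3 in CBDL+DSS were each lost in 5 of 8 (0.0504 to 0.111 and 0.0738 to 0.131), and Nlrp3 also without the filter (0.0789). Endothelial markers took 0.0270 to 0.0565% of reads in Sham6w MoMF against 0.220 to 0.396% in Sham6w monocytes, and lymphocyte markers 0.0548 to 0.185% against 0.0219 to 0.0430%. Neutrophil markers took 0.00272 to 0.00674% in Sham6w MoMF against 0.0261 to 0.218% in Sham6w monocytes. They took 0.00629 to 0.0120% against 0.0461 to 0.0964% in CBDL+DSS, and 0.00136 to 0.0104% against 0.0200 to 0.0435% in CBDL6w. What part these shares had was not tested. In CBDL2w and DSS limma called 0 members, beside 2.01% and 2.32% of all genes. Unadjusted p was under 0.05 for 3 and 4 members in these groups, beside 856 and 868 of 7555 genes. There edgeR and DESeq2 each called 1 in CBDL2w, Il1rn, and 0 in DSS.

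**Figure D2:**
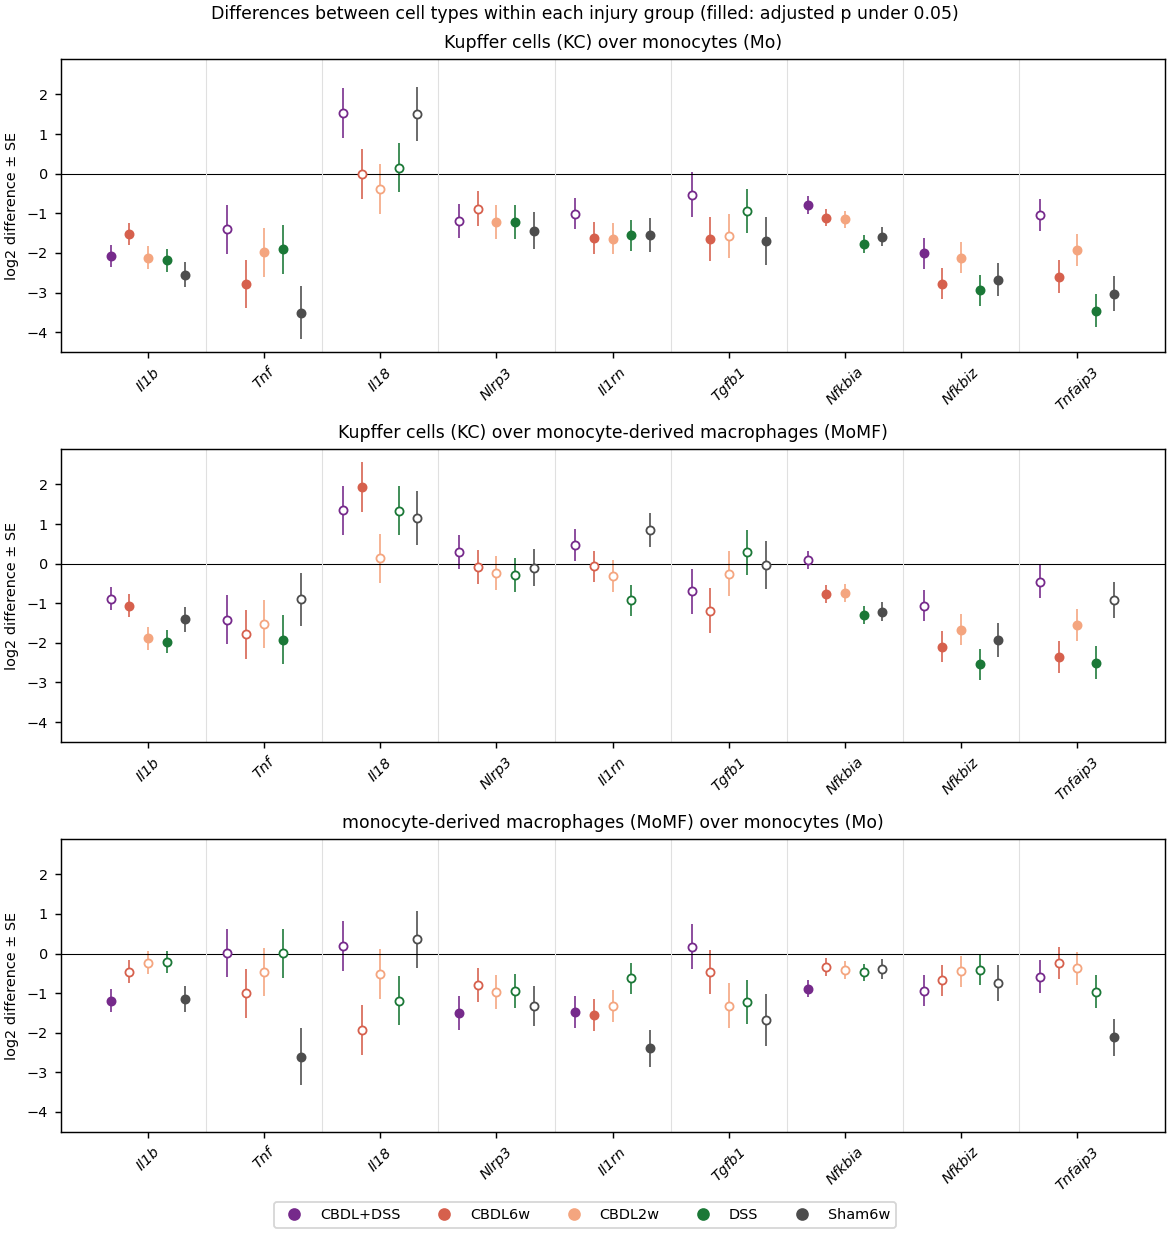
Log2 difference in each injury group (points, with SE bars) for Kupffer cells over monocytes, Kupffer cells over MoMF, and MoMF over monocytes, on the log2(normalized count + 1) scale; filled points have an adjusted p under 0.05 (limma). Filled points are below 0 throughout, except for Il18 between Kupffer cells and MoMF in CBDL6w at 1.93.

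Injury groups were then compared within each cell type: each injury with Sham6w, advanced with onset ligation, and ligation with the second hit against ligation alone. The 4 comparisons with Sham6w share its libraries, so their values are given side by side and are not independent of each other.

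In Kupffer cells the member that moved was Tnfaip3. CBDL+DSS libraries held 40.4, 23.3, 25.6 and 92.5 normalized counts, against 1.32, 6.28, 4.80 and 16.0 in CBDL6w, and the groups did not overlap. Tnfaip3 rose by 2.64 ± 0.52 on the log2 scale (adjusted p = 0.0118, limma), 1 call of 8 members beside 1.74% of all genes. Without CBDL+DSS library 6, the highest, the adjusted p was 0.0585. The 20 immediate early and heat shock genes took 0.707 to 1.26% of reads in CBDL+DSS, with library 6 highest, against 0.466 to 0.732% in CBDL6w. Kupffer cell markers took 0.612 to 0.782% against 0.321 to 0.611%, and monocyte markers 0.0328 to 0.0757% against 0.0584 to 0.182%, all 10 of each above 0 in both groups; the part of these shares in the result was not tested.

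The change of Tnfaip3 with colitis differed according to ligation. DSS libraries without ligation held 4.47, 7.51, 19.2 and 8.93 normalized counts in Kupffer cells, against 9.58, 9.70, 16.9 and 10.8 in Sham6w, which overlap. The colitis change with ligation exceeded that without by 2.98 ± 0.74 on the log2 scale (adjusted p = 0.0203, limma), again 1 call of 8 members, beside 6.02% of all genes. The median of all genes for this difference was 0.14. It stayed past the threshold in all 16 fits that left out 1 library of the 4 groups.

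Against Sham6w, limma called 0 of 8 members in Kupffer cells in CBDL+DSS, CBDL6w, CBDL2w and DSS, beside 3.31%, 3.25%, 2.71% and 7.89% of all genes. Unadjusted p was under 0.05 for 5, 0, 1 and 1 members, beside 959, 1027, 931 and 1454 of 6159 genes. The 5 in CBDL+DSS included Il1b, at 123, 113, 84.7 and 232 normalized counts against 66.0, 48.5, 77.4 and 72.2 in Sham6w (log2 difference 0.97 ± 0.30, adjusted p = 0.0788), and Tnfaip3 (1.68 ± 0.52, adjusted p = 0.0838). For both genes every CBDL+DSS library was above every Sham6w library. There edgeR called 2 members, these 2, and DESeq2 called 3, these and Nfkbia; neither called any member in the other 3 comparisons. CBDL6w against CBDL2w had 0 calls among 8 members by limma, beside 0% of all genes, and 0 by edgeR or DESeq2. Unadjusted p there was under 0.05 for 2 members, beside 449 of 6159 genes.

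MoMF showed higher Il1b in CBDL2w and in DSS than in Sham6w. CBDL2w libraries held 354, 371, 454 and 552 normalized counts, and DSS libraries 299, 625, 446 and 362, against 334, 99.9 and 158 in Sham6w. Il1b rose by 1.29 ± 0.31 on the log2 scale in CBDL2w (adjusted p = 0.0239, limma) and by 1.25 ± 0.31 in DSS (adjusted p = 0.0378). All CBDL2w libraries were above Sham6w, whereas 1 DSS library was below the highest Sham6w library. Il1rn, the antagonist of the same receptor, also rose in CBDL2w, to 36.5, 38.8, 39.2 and 23.9 normalized counts, against 22.3, 4.34 and 8.84 in Sham6w (log2 difference 1.71 ± 0.46, adjusted p = 0.0423). The joined Sham6w library 1+2+5 was the highest of its group for both genes. These were 2 calls of 8 members in CBDL2w and 1 of 8 in DSS, beside 3.06% and 2.07% of all genes.

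Each of these 3 calls was lost when certain single libraries were left out. For Il1b in CBDL2w these were CBDL2w 3 and 4 and Sham6w 3 and 4+6 (adjusted p = 0.0582 to 0.085). For Il1b in DSS they were DSS 2, 3 and 5+6 and Sham6w 3 and 4+6 (0.0698 to 0.111), and for Il1rn they were CBDL2w 1, 2 and 3 and Sham6w 3 and 4+6 (0.0759 to 0.129). Lymphocyte markers (11 genes) took 0.00200 to 0.00976% of reads in CBDL2w, with 6 of them at 0, among them Cd3d and Trac. They took 0.0150 to 0.0550% in DSS, against 0.0548 to 0.185% in Sham6w, with Cd8a at 0. Monocyte markers took 0.448 to 0.529% in CBDL2w and 0.186 to 0.246% in DSS, against 0.0996 to 0.160% in Sham6w. Kupffer cell markers took 0.0269 to 0.0780% and 0.0370 to 0.0589% in those groups, against 0.0784, 0.325 and 0.339% in Sham6w libraries 1+2+5, 3 and 4+6. The Sham6w library highest in Il1b and Il1rn was thus the one with most monocyte and fewest Kupffer cell markers. That library, 1+2+5, was also the shallowest of the 58, at 118687 reads, with 9 reads of Il1rn. Its correlations with Sham6w libraries 3 and 4+6, 0.807 and 0.816, were the lowest among replicate pairs. Its share of immediate early and heat shock genes, 1.61%, was the highest of all libraries. Endothelial markers took 0.144 to 0.167% in DSS against 0.0270 to 0.0565% in Sham6w. The part of these shares in the differences, that of Tnf below included, was not tested. Tnf in DSS held 29.1, 90.9, 35.0 and 24.3 normalized counts, against 14.9, 2.17 and 6.87 in Sham6w. Those libraries were apart, but the log2 difference of 2.44 ± 0.68 missed the threshold by limma (adjusted p = 0.0593) and passed by DESeq2 (adjusted p = 0.0183).

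Tnfaip3 was the 1 member of 8 called in CBDL+DSS against Sham6w in MoMF, beside 9.80% of all genes. CBDL+DSS libraries held 93.7, 31.9, 60.3 and 45.7 normalized counts, against 9.91, 38.0 and 29.5 in Sham6w, with overlap (log2 difference 1.22 ± 0.39, adjusted p = 0.0486, limma). Without Sham6w library 1+2+5, the lowest at 4 reads, the adjusted p was 0.32, and it was 0.0639 to 0.151 without CBDL+DSS 1, 3 or 4+5. The call was also lost under 5 of 7 other settings. Lymphocyte markers took 0.00189 to 0.00520% in CBDL+DSS against 0.0548 to 0.185% in Sham6w, with their part not tested.

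For the remaining comparisons of MoMF limma called 0 of 8 members. These were CBDL6w against Sham6w, CBDL6w against CBDL2w, CBDL+DSS against CBDL6w and the difference of colitis changes, beside 1.22%, 0.0823%, 4.16% and 2.09% of all genes. Unadjusted p was under 0.05 for 1, 3, 1 and 3 members, beside 908, 391, 1097 and 945 of 6079 genes. In each edgeR called 0, and DESeq2 called 1 in all, Il1b in CBDL6w against CBDL2w. Il1b there held 223, 247, 154 and 181 normalized counts in CBDL6w, against 354, 371, 454 and 552 in CBDL2w. No library of the 2 groups overlapped, yet the log2 difference of -1.10 had an adjusted p of 0.21 by limma.

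In monocytes 1 member was called lower in CBDL6w than in Sham6w, and 2 others lower in CBDL+DSS than in Sham6w. Against CBDL6w, 2 members were called higher in CBDL+DSS. Tnfaip3 was called both in CBDL6w against Sham6w and in CBDL+DSS against CBDL6w, which share the CBDL6w libraries. Tnfaip3 fell to 41.3, 37.5, 48.9 and 26.5 normalized counts in CBDL6w, against 110, 103 and 90.6 in Sham6w. The groups were apart, and the log2 difference was -1.40 ± 0.26 (adjusted p = 0.000962, limma), 1 call of 9 members beside 11.2% of all genes, whose median difference was -0.11. The call held in all fits that left out 1 library, and was lost with the joined libraries left out (adjusted p = 0.128), where 1 Sham6w library remained and was assumed to vary like the other groups. Ribosomal protein genes took 14.6 to 16.2% of reads in CBDL6w against 9.14 to 10.3% in Sham6w. The 20 immediate early and heat shock genes took 0.718 to 0.978% of reads in CBDL6w against 1.33 to 1.59% in Sham6w. Endothelial markers took 0.0110 to 0.0301% (11 of 12 above 0, Oit3 at 0) against 0.220 to 0.396% (all 12 above 0). Neutrophil markers took 0.0200 to 0.0435% against 0.0261 to 0.218%, all 10 above 0 in both. Dendritic cell markers (8 genes) took 0.00322 to 0.00544% (3 at 0) against 0.0320 to 0.0613% (1 at 0). Monocyte markers took 0.913 to 0.995% against 0.578 to 0.728%. The part of these shares in the result was not tested.

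CBDL+DSS monocytes had less Tgfb1 and Tnf than Sham6w monocytes. Tgfb1 fell to 4.20, 2.05, 4.63 and 4.52 normalized counts, from 2 to 6 reads per library. Sham6w libraries held 30.2, 13.3 and 16.8, from 11 to 23 reads (log2 difference -2.08 ± 0.47, adjusted p = 0.00558, limma). Tnf fell to 22.1, 6.14, 9.26 and 25.3 normalized counts, against 52.5, 36.2 and 43.6 (log2 difference -1.62 ± 0.47, adjusted p = 0.0263). Neither gene overlapped between the groups. The Tgfb1 call held in every fit that left out 1 library, and that of Tnf was lost without any 1 of the 3 Sham6w libraries or without CBDL+DSS 2 or 4+5 (adjusted p = 0.0548 to 0.095). With the joined libraries left out, both were lost (adjusted p = 0.23 for Tgfb1 and 0.41 for Tnf). These were 2 calls of 9 members, beside 13.1% of all genes. Endothelial markers took 0.0184 to 0.0320% of reads in CBDL+DSS (Tie1 at 0) against 0.220 to 0.396% in Sham6w. Neutrophil markers took 0.0461 to 0.0964% against 0.0261 to 0.218%, and ribosomal protein genes 13.1 to 15.1% against 9.14 to 10.3%. Dendritic cell markers took 0.00310 to 0.00594% against 0.0320 to 0.0613%, and monocyte markers 0.910 to 1.16% against 0.578 to 0.728%. The immediate early and heat shock genes took 1.05 to 1.33% in CBDL+DSS against 1.33 to 1.59% in Sham6w. The part of these shares was not tested. DSS monocytes held 3.63, 5.36, 9.83 and 4.60 normalized counts of Tgfb1, from 4 to 8 reads per library. The log2 difference from Sham6w was -1.62 and missed the threshold (adjusted p = 0.0723, limma).

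Il1b and Tnfaip3 were higher in monocytes from ligation with colitis than from ligation alone. Il1b rose to 512, 468, 580 and 641 normalized counts in CBDL+DSS, against 293, 226, 263 and 318 in CBDL6w (log2 difference 1.00 ± 0.20, adjusted p = 0.025, limma). Tnfaip3 rose to 78.8, 53.2, 91.1 and 111 normalized counts, against 41.3, 37.5, 48.9 and 26.5 (log2 difference 1.08 ± 0.24, adjusted p = 0.0335). Every CBDL+DSS library was above every CBDL6w library for both, but each call was lost in 6 of 8 fits that left out 1 library. Il1b kept its call only without CBDL6w 1 or 4 (otherwise adjusted p = 0.0524 to 0.0838) and Tnfaip3 only without CBDL6w 3 or CBDL+DSS 2 (otherwise 0.065 to 0.128). These were 2 calls of 9 members, beside 0.573% of all genes. The immediate early and heat shock genes took 1.05 to 1.33% of reads in CBDL+DSS against 0.718 to 0.978% in CBDL6w, without overlap. Neutrophil markers took 0.0461 to 0.0964% against 0.0200 to 0.0435%, also without overlap. What part these shares had was not tested.

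CBDL2w and DSS against Sham6w, CBDL6w against CBDL2w and the difference of colitis changes had 0 calls among 9 members in monocytes by limma, beside 13.8%, 1.59%, 0% and 0.311% of all genes. Unadjusted p was under 0.05 for 2, 2, 2 and 3 members, beside 1630, 1098, 404 and 907 of 6112 genes. By edgeR 0 were called, and DESeq2 called 1, Il1b in CBDL6w against CBDL2w. Monocyte Il1b there was 293, 226, 263 and 318 normalized counts in CBDL6w and 446, 365, 582 and 657 in CBDL2w, with no overlap.

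**Figure D3:**
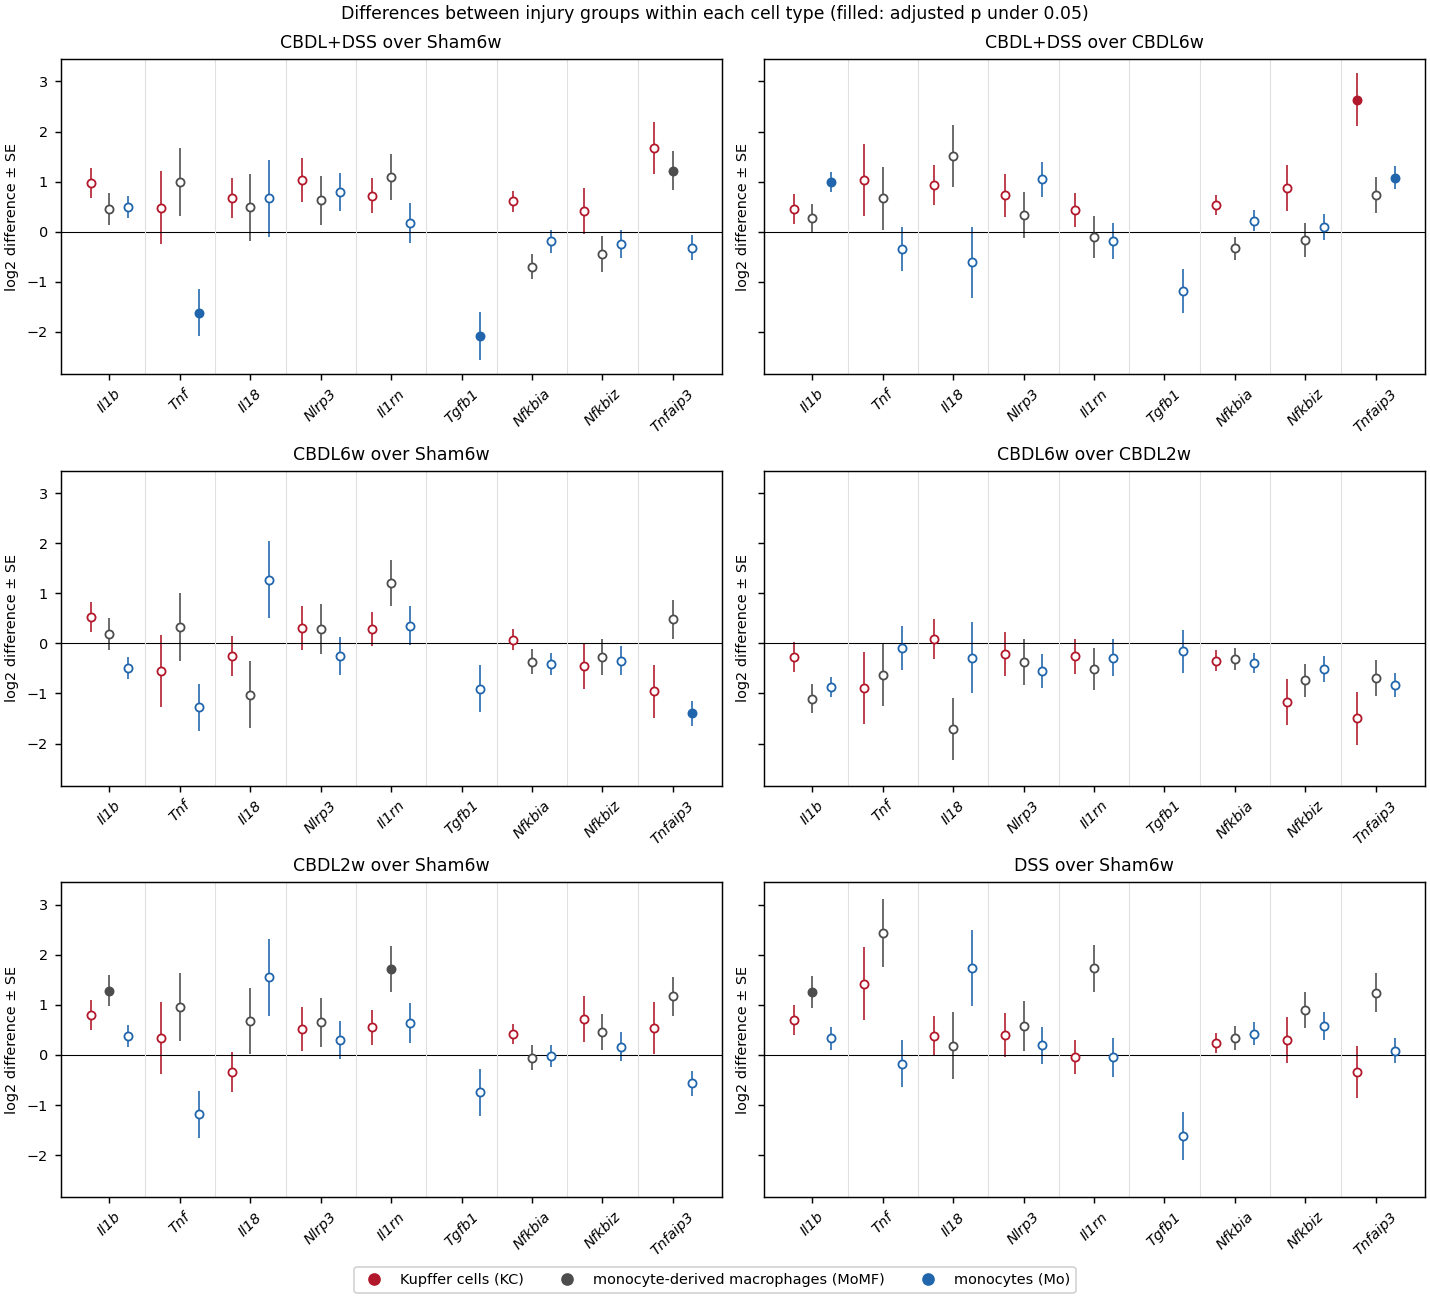
Log2 difference of each tested member between injury groups (points, with SE bars), in Kupffer cells, MoMF and monocytes, on the log2(normalized count + 1) scale; filled points have an adjusted p under 0.05 (limma). Tnfaip3 is filled and above 0 for CBDL+DSS over CBDL6w in Kupffer cells and in monocytes, and filled and below 0 for CBDL6w over Sham6w in monocytes.

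Whether the change of a member with injury differed between 2 cell types was tested as a difference of the 2 changes. Nfkbia in CBDL+DSS against Sham6w was the 1 member of 9 called. Kupffer cells held 374, 286, 338 and 677 normalized counts in CBDL+DSS, against 264, 219, 311 and 251 in Sham6w. MoMF held 476, 302, 416 and 316 in CBDL+DSS, against 748, 474 and 611 in Sham6w. The change in Kupffer cells exceeded that in MoMF by 1.30 ± 0.33 on the log2 scale (adjusted p = 0.0215, limma), while within each cell type the change missed the threshold (0.61 ± 0.20, adjusted p = 0.113, and -0.69 ± 0.25, adjusted p = 0.0738). Without Kupffer cell library 6 of CBDL+DSS or 2 of Sham6w, or MoMF library 2 of CBDL+DSS or 1+2+5 of Sham6w, the difference missed it too (adjusted p = 0.0507 to 0.103). The immediate early and heat shock genes took 0.954 to 1.24% of reads in CBDL+DSS MoMF against 1.28 to 1.61% in Sham6w MoMF. In Kupffer cells they took 0.707 to 1.26% against 0.661 to 0.946%. Lymphocyte markers took 0.00189 to 0.00520% in CBDL+DSS MoMF against 0.0548 to 0.185% in Sham6w MoMF, and Kupffer cell markers 0.0396 to 0.129% against 0.0784 to 0.339%. What part these shares had was not tested.

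Over all genes, 1.99% passed for that difference between Kupffer cells and MoMF. For the other 4 comparisons (CBDL6w, CBDL2w and DSS against Sham6w, and CBDL+DSS against CBDL6w) limma called 0 of 9 members, beside 0.397%, 0.344%, 0.860% and 0.450% of all genes. Between Kupffer cells and monocytes it called 0 of 9 in the 5 comparisons, beside 0.821% (CBDL+DSS against Sham6w), 1.58%, 1.67%, 0.238% and 0%. Between MoMF and monocytes it called 0 of 9, beside 2.12%, 0.649%, 1.38%, 0.0397% and 0.119% in that order. At an unadjusted p under 0.05 there were 0 to 3 members in each of the 14 comparisons without a call, beside 382 to 1215 of 7555 genes. In them edgeR and DESeq2 each called 1 member, Tnfaip3 between Kupffer cells and monocytes in CBDL+DSS against Sham6w.

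Other genes of the pathway were counted from lists chosen by role. In Sham6w, 5 of 18 NF-kB feedback genes were lower in Kupffer cells than in monocytes and none was higher, beside 16.0% of all genes called in this comparison. They included Zfp36, whose protein destabilises cytokine transcripts (70.6 ± 15.9 against 351 ± 69.6 normalized counts, adjusted p = 5.03e-10, limma), and Socs3, an inhibitor of cytokine receptor signalling (8.52 ± 4.49 against 62.8 ± 12.0, adjusted p = 3.99e-08). Of 21 NF-kB target genes, 12 were lower and none higher, beside the same 16.0%. Ptgs2, which encodes cyclooxygenase 2, averaged 1.10 ± 0.97 normalized counts in Kupffer cells against 60.8 ± 4.54 in monocytes (log2 difference -5.01 ± 0.47, adjusted p = 6.86e-12). The median log2 difference of all genes was -0.01. Of the 5 NF-kB subunits, Rel alone was called (again beside 16.0%), at 6.24 ± 2.15 against 33.2 ± 11.1 normalized counts (adjusted p = 2.09e-05).

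The receptors and decoys ran partly the other way. Il18bp encodes the secreted binding protein that neutralises interleukin 18, and it averaged 109 ± 9.26 normalized counts in Sham6w Kupffer cells, against 15.7 ± 13.5 in MoMF and 6.24 ± 3.73 in monocytes. The log2 differences were 3.20 ± 0.60 (adjusted p = 8.51e-05, limma) and 4.07 ± 0.60 (adjusted p = 5.52e-07). In CBDL+DSS it averaged 135 ± 50.2 in Kupffer cells, against 19.7 ± 8.20 and 5.30 ± 2.50. Il10rb, a subunit of the interleukin 10 receptor, was higher in Sham6w Kupffer cells than in monocytes (67.3 ± 13.1 against 34.3 ± 8.88, adjusted p = 0.0164), and Tnfrsf1b, a receptor of tumour necrosis factor, was lower (29.9 ± 3.91 against 54.1 ± 7.30, adjusted p = 0.00782). These were 2 higher and 1 lower of 7 tested, beside 16.0% of all genes. Of 9 inflammasome genes Casp1, the protease that matures both interleukins, was the 1 called, at 43.4 ± 3.17 against 19.9 ± 4.01 (adjusted p = 0.0493), a share below those 16.0%.

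Among the pathway lists in injured Kupffer cells, 4 of 16 NF-kB targets rose in CBDL+DSS against Sham6w and none fell, beside 3.31% of all genes. They included Bcl2a1b, a survival gene, at 72.3 ± 15.0 against 24.3 ± 8.58 normalized counts (adjusted p = 0.000854, limma), though its near-identical paralogs may share reads with it, and Ier3 at 41.2 ± 17.1 against 15.8 ± 2.59 (adjusted p = 0.0375). Socs3 rose as the 1 call of 14 feedback genes, to 30.1 ± 13.9 against 8.52 ± 4.49 (adjusted p = 0.0309). In DSS, 2 of 14 feedback genes fell and none rose, beside 7.89% of all genes. Tnip1, which encodes a partner of A20, was at 6.04 ± 3.82 normalized counts in DSS against 33.6 ± 8.16 in Sham6w (log2 difference -2.52 ± 0.48, adjusted p = 0.00276). Against CBDL6w, Cxcl2, a neutrophil chemokine, rose in CBDL+DSS to 265 ± 207 against 66.0 ± 24.6 (adjusted p = 0.0461), 1 of 16 targets beside 1.74% of all genes.

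In MoMF Cxcl2 rose together with Il1b in CBDL2w, to 575 ± 128 normalized counts against 89.9 ± 8.81 in Sham6w (log2 difference 2.64 ± 0.26, adjusted p = 2.46e-06, limma). Of 20 NF-kB targets 4 rose and 1 fell there, beside 3.06% of all genes. The gene that fell was Ccl5, a lymphocyte-attracting chemokine also made by lymphocytes, at 7.93 ± 4.83 against 121 ± 83.6 (adjusted p = 0.00466). Tgfb1 itself was too low to test in these cells. Of 11 genes that activate TGF-β or respond to it, 3 rose in CBDL2w, beside the same 3.06%, and 6 rose in CBDL+DSS, beside 9.80%, and none fell. Tgfbi, a TGF-β-induced matrix gene, was at 257 ± 56.5 in CBDL+DSS against 76.8 ± 34.6 in Sham6w (adjusted p = 0.00013). Between onset and advanced ligation, 2 of 20 targets were lower in CBDL6w than in CBDL2w, beside 0.0823% of all genes: Cxcl2 (119 ± 6.94 against 575 ± 128, adjusted p = 2.5e-05) and Ier3 (39.2 ± 12.2 against 99.2 ± 17.3, adjusted p = 0.0477).

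In monocytes, CBDL+DSS against Sham6w had 4 of 21 NF-kB targets higher and 2 lower, beside 13.1% of all genes called. Ier3 rose to 213 ± 36.9 normalized counts against 81.3 ± 31.5 (adjusted p = 0.00102, limma), and Cxcl10, an interferon-induced chemokine, fell to 31.3 ± 12.9 against 118 ± 44.6 (adjusted p = 0.00369). While Tgfb1 fell in this comparison, 2 of 11 genes of the TGF-β list rose and none fell, beside the same 13.1%. These were Tgfbi, at 448 ± 42.0 against 143 ± 32.9, and Thbs1, whose protein can activate latent TGF-β, at 47.5 ± 9.60 against 6.53 ± 1.81 (adjusted p = 9.68e-05 for each). With colitis added to ligation, Osm, a cytokine of the interleukin 6 family, rose to 51.4 ± 15.6 in CBDL+DSS against 15.1 ± 5.48 in CBDL6w (adjusted p = 0.025), 1 of 5 other cytokines beside 0.573% of all genes. Cxcl1 rose to 51.1 ± 6.82 against 13.4 ± 3.25 (adjusted p = 0.00199), 1 of 21 targets.

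The genes whose level across all 58 libraries was most like that of a member were found by Pearson's r over log2(normalized count + 1), among 7555 genes. These r values describe libraries that share cell type, depth and handling, and part of each reflects the difference between cell types. For Il1b they were Ifrd1 (r = 0.926), Btg2 (0.926) and Junb (0.916), and for Tnf they were Dusp2 (0.833), Nfkbia (0.800) and Egr1 (0.798). For Nfkbia they were Nfkbiz (0.909), Dusp2 (0.900) and Nr4a1 (0.896), for Nfkbiz Nr4a1 (0.910), Nfkbia (0.909) and Zfp36 (0.888), and for Tnfaip3 Ccrl2 (0.878), Zfp36 (0.873) and Fos (0.866). Several of these, such as Junb, Egr1 and Fos, are immediate early genes. Nlrp3 was most like Hp (0.756), which is on the monocyte marker list, Mmp8 (0.707), on the neutrophil list, and Cxcl2 (0.701). Il1rn was most like Tpd52 (0.758), Chil1 (0.746) and Vcan (0.742). For Il18 the closest gene reached only 0.517 (Dynlt1c) and for Tgfb1 0.600 (A130071D04Rik).

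Among the members, the pair most alike over the 58 libraries was Nfkbia and Nfkbiz (r = 0.909, and 0.656 after the mean of each of the 15 groups was removed), with r of 0.535 within the 20 Kupffer cell libraries, 0.892 within MoMF and 0.931 within monocytes. Il1b and Nfkbia had r of 0.820, 0.619 and 0.584 in the same order, and 0.717 after group means were removed. Tnfaip3 and Nfkbia had r of 0.682 in Kupffer cells, 0.080 in MoMF and 0.595 in monocytes. Il18 stood apart from the other tested members, with r over the 58 libraries from -0.178 to 0.086.

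**Figure D4:**
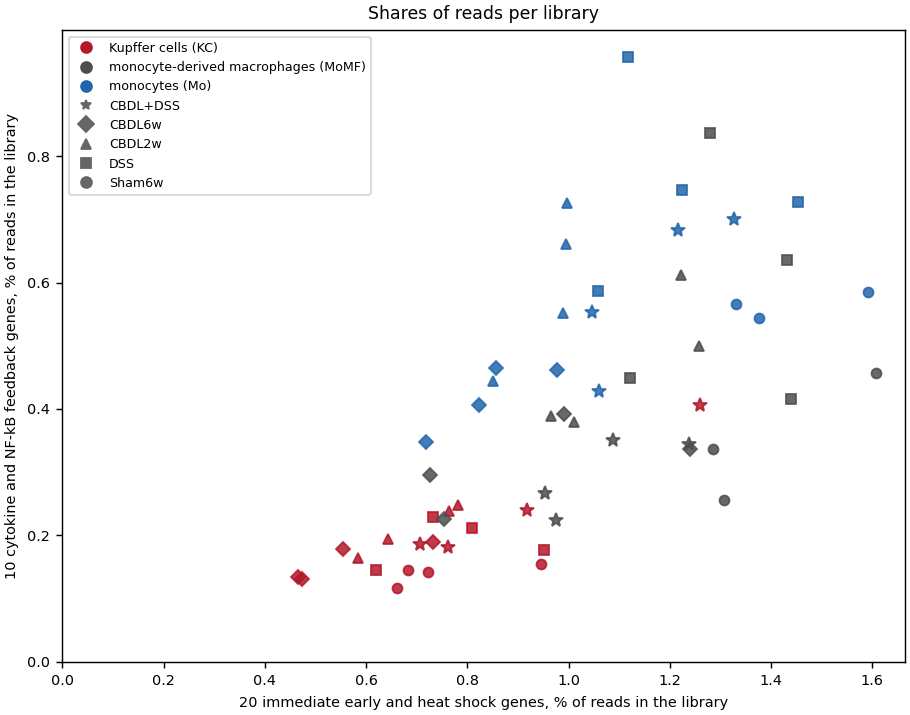
Share of reads taken by the 10 member genes (vertical axis, percent) against that taken by 20 immediate early and heat shock genes (horizontal axis, percent); each point is 1 of 58 libraries, coloured by cell type. Members took 0.182 to 0.406% of reads in CBDL+DSS Kupffer cells and 0.117 to 0.154% in Sham6w Kupffer cells, and up to 0.836% in MoMF and 0.957% in monocytes.

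The 10 members together took 0.224 to 0.836% of reads in MoMF and 0.347 to 0.957% in monocytes. In Kupffer cells every CBDL+DSS library, at 0.182 to 0.406%, was above every Sham6w library, at 0.117 to 0.154%. Kupffer cell library 6 of CBDL+DSS was the highest of its cell type in both shares, at 0.406% for the members and 1.26% for the immediate early and heat shock genes. The lowest monocyte library in both was library 2 of CBDL6w, at 0.347% and 0.718%. Other extremes lay in different libraries. Among monocytes the members were highest in DSS library 2 (0.957% and 1.12%) and the other share in Sham6w library 3+6 (0.585% and 1.59%). Among MoMF the members were highest in DSS library 2 (0.836% and 1.28%) and the other share in Sham6w library 1+2+5 (0.457% and 1.61%). The part of handling in the members' share was not tested.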

How the data were processed

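Each value of the deposited table is a signal, a gene count that the authors divided by a DESeq2 size factor per library, per the file's name and the submitters' processing notes. Those notes also give, without roles, STAR 2.7.5b, RSEM 1.3.1, UMI-tools 1.0.1, the build GRCm38.p6 and Trimmomatic in 2 releases, 0.39 and 0.39-1. Dividing by the smallest step gave whole reads for 100.0% of values within 0.01. Of 25307 identifiers, 25272 were matched to GENCODE M21 symbols and 35 were not. No replicate pair matched within sampling noise (lowest chi-square 2.81 per degree of freedom).

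Tests on log2(normalized count + 1) were two-sided and used limma 3.58.1 in R 4.3.3, with its trend and robust options, Benjamini-Hochberg adjustment over all genes and a threshold of 0.05. Injury groups were fitted per cell type (6159 genes in Kupffer cells, 6079 in MoMF, 6112 in monocytes) and cell types over all 58 libraries (7555 genes). The filter asked for 10 normalized counts in 3 libraries. Alternatives were a pseudocount of 5, no filter, equal totals, edgeR 4.0.16, DESeq2 1.42.0 (both on recovered reads), a replicate block, libraries with single replicate numbers, and leaving out each library. The tests were checked on simulated data.

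The members and lists were chosen with earlier results of these data known. From each list the text names at most the 3 called genes of smallest adjusted p. Of 224 list genes 221 were matched. Promoters came from RefSeq, GRCm38.p6, and Il10 and Nfkbiz had no entry.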

Additional observations from a re-analysis of the deposited data

Results flagged for a closer look

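Tnfaip3 in Kupffer cells changed with colitis differently according to ligation. The change from colitis with ligation exceeded that without by 2.98 on the log2 scale (adjusted p = 0.0203, limma), with 45.5 ± 32.3 normalized counts in CBDL+DSS against 7.10 ± 6.29 in CBDL6w, and 10.0 ± 6.40 in DSS against 11.7 ± 3.47 in Sham6w. Nfkbia in CBDL+DSS against Sham6w differed between Kupffer cells and MoMF by 1.30 on the log2 scale (adjusted p = 0.0215, limma). It averaged 419 ± 176 normalized counts in CBDL+DSS against 261 ± 37.9 in Sham6w in Kupffer cells, and 378 ± 83.0 against 611 ± 137 in MoMF.

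A library far from the other 3 of its group was found in 8 of 129 groups of 4 by Dixon's rule, which flags about 1 in 20 by chance. Tnf in MoMF of DSS held 90.9 normalized counts in library 2, against 24.3 to 35.0 in the others. Tnfaip3 in Sham6w Kupffer cells held 16.9 in library 3, against 9.58 to 10.8. Nfkbiz in CBDL6w monocytes held 123 in library 2, against 210 to 217. Il18 in MoMF of CBDL2w held 8.83 in library 3, against 15.7 to 16.9. Tgfb1 in CBDL+DSS monocytes held 2.05 in library 2, from 2 reads, against 4.20 to 4.63. The last 3 were in Il10 and rest on 1 or 2 reads where the other libraries had 0. They were 0.897 normalized counts in library 2 of CBDL6w Kupffer cells, 1.66 in library 4 of Sham6w Kupffer cells and 0.919 in library 4 of DSS monocytes.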

How the results depend on the processing

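No called result changed direction under any alternative. Kupffer cells against monocytes had 32 calls over 5 groups (27 without the filter, 30 to 34 when 1 library of a single group was left out), Kupffer cells against MoMF 17 (14 to 20), and MoMF against monocytes 9 (7 to 10, and 3 with single-number libraries only). Calls between injury groups were few and moved with the processing, and the cause was not tested. In Kupffer cells 1 call became 2 with a pseudocount of 5, 3 with edgeR, 4 with DESeq2, 0 with the replicate block and 0 with single-number libraries. It became 0 to 2 when 1 library was left out: 0 without CBDL+DSS 6, and 2 without CBDL6w 1 or CBDL+DSS 2 or 4+5. In MoMF 4 calls became 6 with a pseudocount of 5 or with DESeq2, 2 without the filter, 2 with the block, and 1 to 7 when 1 library was left out: 7 without Sham6w 1+2+5, 1 without Sham6w 4+6, CBDL2w 3 or DSS 3, and 2 without CBDL2w 1, 2 or 4, DSS 2 or 5+6, or CBDL+DSS 1 or 4+5. In monocytes all 5 calls were lost with the block, and the 1 call found there was another one. Against Sham6w the adjusted p under the block was 0.121 for Tnfaip3 in CBDL6w, 0.456 for Tgfb1 and 0.651 for Tnf in CBDL+DSS (limma). For CBDL+DSS against CBDL6w it was 0.564 for Tnfaip3 and 0.31 for Il1b. With single-number libraries 1 Sham6w monocyte library remained, so no count is given for that fit. When 1 library was left out there were 2 to 5 calls: 2 without CBDL+DSS 4+5, and 3 without CBDL6w 2 or CBDL+DSS 1, 2 or 6.

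The difference of colitis changes had 1 call in Kupffer cells, 0 with the block and 1 whichever library was left out. In MoMF it had 0, which became 2 with single-number libraries (Il1rn and Il1b), and 0 to 2 when 1 library was left out, 2 without Sham6w 1+2+5. In monocytes it had 0 throughout these fits. Differences between cell types had 1 call, 2 with a pseudocount of 5, 2 with edgeR, 2 with DESeq2, 0 with the block and 0 with single-number libraries. They had 0 to 2 when 1 library was left out: 0 without Kupffer cell libraries Sham6w 2 or CBDL+DSS 6 or MoMF library CBDL+DSS 2, and 2 without Kupffer cell library CBDL6w 4. Between injury groups of a cell type, same-numbered and other libraries correlated alike (medians -0.005 to 0.005 against -0.002 to 0.001). A call between injury groups lost under the block is therefore not read as weaker. Between cell types of 1 injury group, same-numbered libraries correlated weakly, from -0.061 to 0.095. Their medians were still above those of other libraries (0.027 to 0.048 against -0.013 to -0.007). Whether those numbers mark shared animals cannot be told from these values, so losses under the block remain a limit there. Depth limited Il10 and Tgfb1 most, at 44 and 354 reads over 58 libraries.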

Other observations

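Txnip, which encodes a thioredoxin-binding protein known to interact with NLRP3, was the inflammasome gene that moved most widely. In Kupffer cells it fell in CBDL6w (46.6 ± 20.7 against 150 ± 29.1 normalized counts in Sham6w, adjusted p = 0.00173, limma), in CBDL2w (56.1 ± 6.13, adjusted p = 0.0178) and in DSS (65.7 ± 26.8, adjusted p = 0.0178). In monocytes it fell in CBDL6w (25.5 ± 7.56 against 76.8 ± 17.3 in Sham6w, adjusted p = 0.000791), in CBDL2w (27.9 ± 4.34, adjusted p = 0.00151) and in CBDL+DSS (33.0 ± 8.93, adjusted p = 0.00722). These comparisons share the Sham6w libraries of each cell type. Pycard, the inflammasome adaptor, rose in CBDL2w monocytes, to 32.7 ± 10.3 against 12.0 ± 10.7 (adjusted p = 0.017).

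Clec4e, a receptor that NF-kB induces, separated Kupffer cells from monocytes more widely than any member in CBDL+DSS, with 4.05 ± 1.08 normalized counts in Kupffer cells against 274 ± 56.7 in monocytes (log2 difference -5.77 ± 0.62, adjusted p = 3.05e-10, limma). Osm did so among the other cytokines, at 1.68 ± 1.25 against 51.4 ± 15.6 (log2 difference -4.41 ± 0.44, adjusted p = 4.43e-11).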
